A study of Mus musculus with 6 samples.

Results

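The signalling lymphocytic activation molecule (SLAM) genes and their adaptors were followed in 6 RNA-seq libraries of mouse lymphocytes, described in the series text as ILC1s, a group of innate lymphoid cells. The members were chosen by name: 7 receptor genes (Cd244, Slamf1, Slamf6, Slamf7, Cd48, Cd84 and Ly9) and 3 adaptor genes (Sh2d1a, Sh2d1b1 and Sh2d1b2), or 10 of 24628 genes in the table. All 10 were found under these symbols. One group held 3 libraries titled Rorafl/fl, with floxed alleles of Rora, which encodes the nuclear receptor RORα. The other held 3 libraries titled treatment, taken by elimination as the conditional knockout (cKO) named in the series text. Their column names add Ncr1, the gene of the receptor NKp46, to Rora. The sample labels state no strain, age, sex, organ, sort gate, number of animals or driver of the deletion. The deposited table's own name carries the letters LN, which the labels do not spell out, and the series title speaks of an axis of lymph node and liver. Whether a group's libraries stem from different animals is not stated either, and the p-values then speak of spread among libraries, possibly technical spread only.

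SLAM receptors are immunoglobulin-type surface proteins of blood cells. Most bind a copy of themselves on a neighbouring cell, whereas CD244 (2B4) binds CD48, a protein held in the membrane by a lipid anchor. Tyrosine motifs in the tails of the other receptors recruit small SH2 proteins: SAP, encoded by Sh2d1a, and the EAT-2 type adaptors, encoded by Sh2d1b1 and its neighbour Sh2d1b2. SAP brings in the kinase FYN and EAT-2 couples to phospholipase Cγ, and in NK cells receptors without these adaptors can signal through inhibitory phosphatases instead.

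Levels are given as RPKM, reads scaled to gene length and to library depth, from 20152146 to 22440170 reads per library. Rora was at 6.92, 7.41 and 7.91 RPKM in the floxed and 5.69, 6.29 and 6.24 RPKM in the cKO libraries, and this whole-gene value does not check a deletion of part of the gene. Of the 11 genes shared by ILC1s and NK cells all were detected. Ncr1 was at 360 to 381 RPKM in floxed and 233 to 258 RPKM in cKO libraries. Klrb1c, which encodes NK1.1, was at 96.3 to 107 RPKM over all 6 libraries. Of the 11, Ncr1 passed as lower and Nfil3 as higher in the cKO libraries (limma, adjusted p = 0.00446 and 0.0231), and 9 did not pass. The cKO libraries also had lower Xist, the RNA of the inactive X chromosome (31.9 ± 3.16 to 9.43 ± 0.394 RPKM, log2 difference -1.65). Y-linked Ddx3y was higher (10.4 ± 0.498 to 20.8 ± 0.438 RPKM, SD, n = 3 each, log2 difference 0.93). Both RNAs were found in every library, so each library may pool cells of both sexes, in parts that differ between the groups. Sex is thus not separated from group in any comparison below, and its part in the levels was not tested. Of 26 tested immediate-early and dissociation genes, 18 passed as higher in the cKO libraries and 0 as lower (limma, adjusted p under 0.05). Over all tested genes 0.652% passed as higher and 0.668% as lower. Before adjustment 21 of the 26 had p under 0.05 as higher and 2 as lower (Egr3 and Nr4a3). With voom, a model for reads, 21 passed as higher and 1 as lower. In bulk RNA, fewer cells of a type and less RNA per cell cannot be told apart.

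The sequences before 3 genes are shown first, and a link between sequence and level was not tested. They belong to the adaptor genes Sh2d1b1 and Sh2d1b2, which share a like stretch upstream, and to Cd84. Promoters of 8 members (300 bases each) were found in RefSeq's GRCm38.p6 table, where Cd244 is listed as Cd244a, and those of Ly9 and Sh2d1a were not. For the adaptor pair, 250 bases before Sh2d1b1 and 128 before Sh2d1b2 were searched for the best-matching stretch, and only that stretch is printed. The 128 bases end at the deposited start of Sh2d1b2 (170232749). RefSeq places its start further along, so the bases next to the RefSeq start were not compared. Upstream of Sh2d1b1 (chr1:170277129-170277253, plus strand) and Sh2d1b2 (chr1:170232621-170232748, plus strand), 109 of 125 aligned bases were identical (87.2%), with capitals marking the bases that differ or have no partner:
Sh2d1b1: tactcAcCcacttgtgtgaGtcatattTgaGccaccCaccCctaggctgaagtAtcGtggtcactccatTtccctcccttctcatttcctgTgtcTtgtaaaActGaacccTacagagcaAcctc
Sh2d1b2: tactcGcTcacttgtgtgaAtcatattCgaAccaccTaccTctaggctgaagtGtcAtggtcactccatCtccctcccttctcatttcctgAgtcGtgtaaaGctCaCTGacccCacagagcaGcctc
Before Cd84 (chr1:171839447-171839696, plus strand), capitals mark the letters AGGTCA, a core read by ROR receptors, AGGTGT, a core read by T-box factors, and CAGGAA, a core read by ETS factors:
Cd84: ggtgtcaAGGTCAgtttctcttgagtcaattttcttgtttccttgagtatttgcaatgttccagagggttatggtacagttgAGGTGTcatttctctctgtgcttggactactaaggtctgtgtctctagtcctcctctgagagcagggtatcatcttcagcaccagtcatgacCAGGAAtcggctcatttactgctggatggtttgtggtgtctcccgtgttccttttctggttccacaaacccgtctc
Searched on both strands, AGGTCA was found in the promoter of 1 of 8 members, Cd84, against 16.3% of 32851 mouse promoters of that length. AGGTGT was found in 2 of 8 members (Cd84 and Slamf1) against 13.7%, and CAGGAA in 6 of 8 against 30.6%. The CAGGAA matches of Sh2d1b1 and Sh2d1b2, on the other strand, lie at the same place in their like stretch. They are thus not independent of each other. All matches to the 3 motifs are of letters only, and the motifs do not overlap in the Cd84 sequence printed.

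Of the 10 members, 8 reached at least 1 RPKM in at least 3 libraries and were tested. In limma 0 of the 8 reached a Benjamini-Hochberg adjusted p under 0.05, where 1.32% of all 12731 tested genes did (0.652% as higher and 0.668% as lower). Before adjustment 4 of the 8 had p under 0.05, 2 in each direction, against 14.1% of tested genes. With voom, limma's model for reads, 2 members passed as higher (Cd84 and Slamf6), where 1.78% of tested genes did, and 0 as lower, where 2.41% did (4.19% in either direction). The 3 values of each group lay apart for 4 of the 8 tested members, higher in the cKO libraries for Cd84, Slamf6 and Sh2d1a and lower for Cd244, against 20.3% of all tested genes (7.61% higher and 12.7% lower). The median log2 difference over the 8 was 0.02, beside -0.03 over all tested genes. The largest difference among the 6 tested receptors was a 1.31-fold higher mean, of Slamf6.

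**Figure D1:**
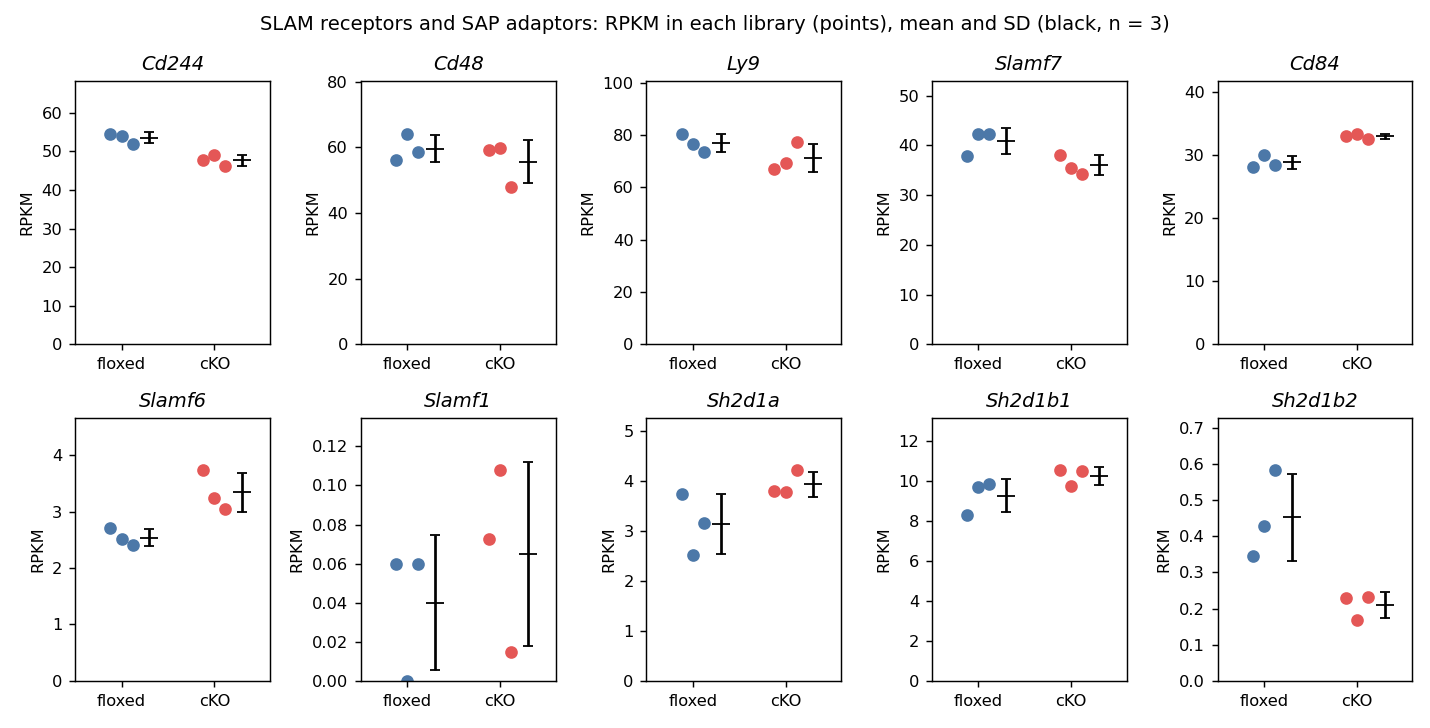
RPKM of the 7 receptor and 3 adaptor genes in each of the 3 floxed (blue) and 3 cKO (red) libraries; points are libraries and black bars give the mean and SD (n = 3), with each vertical axis starting at 0 on its own scale. Cd84, Slamf6, Sh2d1a, Cd244 and Sh2d1b2 have groups that do not overlap, and Slamf1 lies at or below 0.108 RPKM in every library.

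Cd84 and Slamf6, the receptor genes at the far end of the cluster, were higher in the cKO libraries. Cd84 encodes a receptor that binds itself and is also found on B cells, T cells, platelets and mast cells. Its level was 28.1, 30.1 and 28.4 RPKM in the floxed and 33.0, 33.4 and 32.6 RPKM in the cKO libraries. Each cKO value lay above each floxed value, and the means were 28.9 ± 1.07 and 33.0 ± 0.417 RPKM (SD, n = 3 each). Limma put the log2 difference at 0.19 (SE 0.05, 95% confidence interval 0.07 to 0.30) with adjusted p = 0.156, and voom put it at 0.20 with adjusted p = 0.0357. Voom without a limit on level, chosen after seeing the data, ended that call (adjusted p = 0.0644).

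Slamf6 encodes Ly108, a receptor of T, B and NK cells that recruits SAP and EAT-2. Its level was 2.70, 2.52 and 2.40 RPKM in the floxed and 3.73, 3.24 and 3.05 RPKM in the cKO libraries, on 549 to 636 and 728 to 907 reads. The groups did not overlap, and the mean went from 2.54 ± 0.153 to 3.34 ± 0.353 RPKM (SD, n = 3 each). Limma gave a log2 difference of 0.29 (SE 0.10, 95% confidence interval 0.04 to 0.54, adjusted p = 0.289) and voom one of 0.39 (adjusted p = 0.0490), a call that voom without a limit on level ended (adjusted p = 0.123). With 0.1 in place of 1 RPKM added before the log, limma's difference was 0.38.

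Cd244 and Slamf7, receptors best known for their part in NK cell killing, had lower means in the cKO libraries. Cd244 was at 54.6, 54.1 and 51.9 RPKM in the floxed and 47.9, 49.0 and 46.2 RPKM in the cKO libraries. No value of one group reached the other, and the cKO mean was 89.1% of the floxed mean. On the log2 scale this was -0.16 (SE 0.05, 95% confidence interval -0.27 to -0.06), and neither limma's adjusted p = 0.183 nor voom's adjusted p = 0.0607 passed. Slamf7, which encodes CRACC, a partner of EAT-2, was at 37.8, 42.3 and 42.4 RPKM in the floxed and 38.2, 35.5 and 34.2 RPKM in the cKO libraries. Floxed replicate 1 fell below cKO replicate 1, so these groups overlapped, with a log2 difference of -0.18 (SE 0.07, 95% confidence interval -0.34 to -0.02, limma's adjusted p = 0.307). Of the exon bases of Slamf7, 9.24% are shared with Gm37787 on the other strand, which stood at 15.7 ± 1.94 and 12.5 ± 1.94 RPKM (SD, n = 3 each). The strand setting of the counting is not given, so reads of that stretch could belong to either gene.

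Cd48 and Ly9, the other abundant members, overlapped between groups. Cd48, the ligand of CD244 and of CD2, was at 56.2, 64.2 and 58.5 RPKM in the floxed and 59.1, 59.8 and 48.0 RPKM in the cKO libraries. Only cKO replicate 3 lay below the floxed range, and without it the log2 difference went from -0.10 to -0.002. The 95% confidence interval over all libraries was -0.33 to 0.13. Ly9, a receptor that binds itself and is found on T, B and innate lymphocytes, was at 80.5, 76.6 and 73.7 RPKM in the floxed and 66.9, 69.4 and 77.4 RPKM in the cKO libraries. Here cKO replicate 3 was the highest of its group and inside the floxed range, and the log2 difference was -0.11 (95% confidence interval -0.27 to 0.05).

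Slamf1, which encodes CD150, a receptor of activated T cells, B cells and dendritic cells, was nearly absent from these libraries. It had 8, 0 and 8 reads in the floxed and 10, 14 and 2 reads in the cKO libraries, or at most 0.108 RPKM. Counts of this size in both groups did not permit a fold change, and a count of 0 allows up to 3 reads by counting error. Both groups held each of the other 6 receptors at 2.40 RPKM or more in every library.

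Summed over the 7 receptors, the level was 257 to 270 RPKM in floxed and 242 to 251 RPKM in cKO libraries. Within that sum Ly9 took 29.3 ± 1.42% in floxed and 28.9 ± 2.79% in cKO libraries (SD, n = 3 each), the largest share of the 7. Cd84 took 10.8 to 11.2% in the floxed group and 13.3 to 13.5% in the cKO group, so its share lay apart between the groups as its level did. Slamf6 took 0.932 to 1.04% and 1.26 to 1.499%, also apart. The share of Cd244 lay apart in the other direction, at 20.1 to 20.998% and 19.1 to 19.6%.

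**Figure D2:**
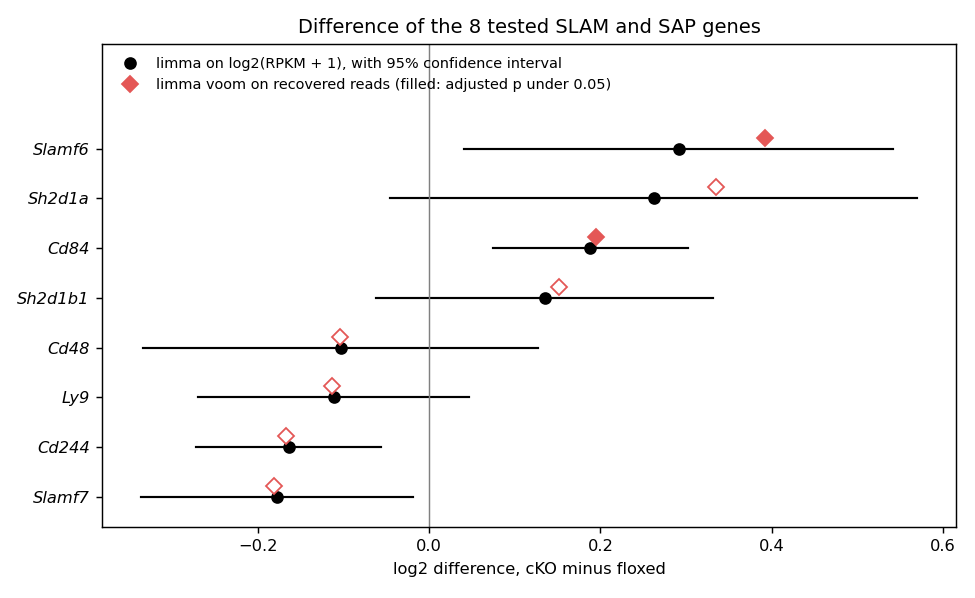
Log2 difference, cKO minus floxed, of the 8 tested members: black points and lines are limma on log2(RPKM + 1) with 95% confidence intervals, and red diamonds are limma voom on recovered reads, filled at an adjusted p under 0.05. Cd84 and Slamf6 carry the 2 filled diamonds, and the intervals of Cd48, Ly9, Sh2d1a and Sh2d1b1 cross 0.

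By position, the 7 receptor genes lie together on chromosome 1 at 171559193 to 171953170 in mm10, within 394 kb. Sh2d1b2 and Sh2d1b1 lie 23.7 kb apart and 1272 kb before Cd244, and Sh2d1a lies on the X chromosome at 42502453 to 42529330. In the order of the cluster, the 4 tested receptors from Cd244 to Cd48 (Cd244, Ly9, Slamf7 and Cd48) had negative log2 differences, between -0.18 and -0.10. Slamf1 follows with its few reads, and then Cd84 and Slamf6 with positive ones, 0.19 and 0.29. The cluster span holds 17 genes in the table. Of those that are no members, Gm37787, Tma7-ps and Gm10521 were tested and did not pass (limma's adjusted p = 0.350, 0.805 and 0.625), with log2 differences of -0.31, -0.20 and 0.18. The nearest tested neighbour of Cd84 and Slamf6, Gm10521, was at 5.45 and 6.26 RPKM and its groups overlapped.

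**Figure D3:**
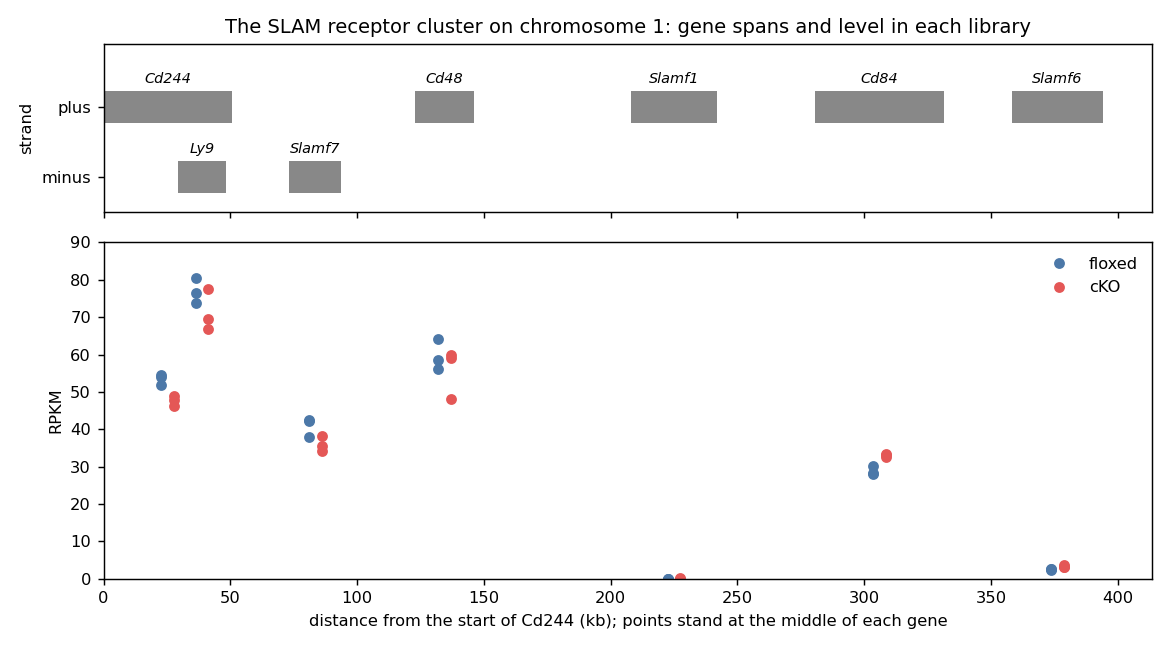
The upper panel draws the 7 receptor genes by strand against distance in kb from the start of Cd244, and the lower panel gives the RPKM of each gene in the 3 floxed (blue) and 3 cKO (red) libraries at the middle of the gene. Ly9 is the most abundant on this scale, Slamf1 lies near 0, and the cKO points stand above the floxed points only for Cd84 and Slamf6 among the genes above 1 RPKM.

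Among the adaptors, Sh2d1a was higher in the cKO libraries by a small margin. It was at 3.73, 2.52 and 3.15 RPKM in the floxed and 3.80, 3.77 and 4.21 RPKM in the cKO libraries. The lowest cKO value, 3.77 RPKM, lay just above floxed replicate 1, and the log2 difference of 0.26 (SE 0.13, 95% confidence interval -0.05 to 0.57) did not pass (limma's adjusted p = 0.431). Sh2d1a is X-linked and the same libraries had lower Xist and higher Ddx3y, and the part of this in its level was not tested. Of its exon bases, 26.6% are shared with Tenm1 on the other strand, which was at or below 0.0201 RPKM in every library.

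Sh2d1b1, which encodes EAT-2, was at 8.31, 9.69 and 9.85 RPKM in the floxed and 10.5, 9.76 and 10.5 RPKM in the cKO libraries. Floxed replicate 3 lay above cKO replicate 2, so the groups overlapped (log2 difference 0.13, 95% confidence interval -0.06 to 0.33). Sh2d1b2, which encodes the related adaptor ERT, was far lower and missed the limit for testing. It had 19, 22 and 32 reads in the floxed and 13, 9 and 13 reads in the cKO libraries, or 0.452 ± 0.120 and 0.209 ± 0.0359 RPKM (SD, n = 3 each). The groups lay apart, an exact two-sided permutation test of the means gave p = 0.1, the smallest that 20 assignments allow, and voom without a limit on level gave adjusted p = 0.599. The coding sequences of the pair are 91.6% identical over 395 aligned bases, and 13.1% of the 50-base words of Sh2d1b2 transcripts also occur in those of another gene, mostly Sh2d1b1. Reads of Sh2d1b2 are therefore uncertain. On RPKM, Sh2d1b1 stood 16.9 to 24.1 times above Sh2d1b2 in floxed and 45.3 to 58.2 times above it in cKO libraries.

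In the balance of SAP against EAT-2 type adaptors, the cKO values lay inside the floxed range. The log2 ratio of Sh2d1a to the sum of Sh2d1b1 and Sh2d1b2 in RPKM was -1.65 ± 0.40 in floxed and -1.42 ± 0.08 in cKO libraries (SD, n = 3 each; exact two-sided permutation p = 0.4). Floxed replicate 1 was the highest of all 6 at -1.21, and floxed replicate 2 the lowest at -2.004. The smallest p that this test allows is 0.1, so it could not have called a difference at 0.05. The difference of 0.23 became 0.45 without floxed replicate 1 and 0.05 without floxed replicate 2.

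The order of the levels depends on the gene length used. With the length in the table, the union of all exons, the floxed means ran from Ly9 (76.9 RPKM) through Cd48 (59.6), Cd244 (53.6), Slamf7 (40.8), Cd84 (28.9), Sh2d1b1 (9.28), Sh2d1a (3.13), Slamf6 (2.54) and Sh2d1b2 (0.452) to Slamf1 (0.0400). Of these neighbours, Sh2d1a and Slamf6 overlapped in their 3 floxed values, and in the cKO libraries Cd48 and Cd244 did. The table's length is 4.50 times that of the transcript with the longest coding sequence for Sh2d1a, 2.85 times for Slamf7 and 1.89 times for Slamf6, but equal to it for Sh2d1b1 and 3 bases longer for Cd48. Per length of that transcript, a scale chosen after seeing the data, Slamf7 came first at 116.5 ± 7.42 RPKM and Sh2d1a, at 14.1 ± 2.72, stood above Sh2d1b1, at 9.28 ± 0.847 (SD, n = 3 floxed libraries each). Which adaptor is the more abundant thus turned with the length, while differences between groups do not depend on it beyond the added 1 RPKM.

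Among 27 partners of SLAM signalling, chosen by name and all in the table, Fyn passed. It lies on chromosome 10, encodes the kinase that SAP recruits to SLAM receptors and rose from 138, 142 and 143 RPKM in the floxed to 179, 179 and 186 RPKM in the cKO libraries. Every cKO value exceeded every floxed value by far more than the spread within groups, with a log2 difference of 0.36 (SE 0.04, 95% confidence interval 0.27 to 0.45, limma's adjusted p = 0.0106). The call was lost when floxed replicate 3 or any 1 of the 3 cKO libraries was left out (adjusted p = 0.0519 to 0.0595), with the replicate number as a block (0.0567) and without the mean-variance trend (0.0794), while the difference stayed between 0.34 and 0.39. Voom gave adjusted p = 2.11e-07.

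Of the 26 tested partners, 1 rose, 0 fell and 25 did not pass, with 13 above and 13 below 0 and a median of -0.001 beside -0.03 over all tested genes. The 1 call of 26 stands beside 1.32% of all tested genes. Before adjustment 5 of the 26 had p under 0.05, 4 of them higher, beside 14.1% of all tested genes. Lck, the other abundant SRC-type kinase, was at 150 ± 3.10 and 161 ± 2.17 RPKM (SD, n = 3 each; log2 difference 0.10, limma's adjusted p = 0.273), with groups apart. Ptpn6, which encodes the phosphatase SHP-1, was at 153 ± 4.10 and 146 ± 5.23 RPKM (log2 difference -0.07, limma's adjusted p = 0.544), with groups overlapping. Plcg1, a phospholipase Cγ gene named, like Plcg2, after its values were seen, missed the limit for testing with 144, 220 and 208 reads in the floxed and 64, 99 and 80 in the cKO libraries. Its groups lay apart at 1.15 ± 0.280 and 0.474 ± 0.117 RPKM, and voom without a limit on level gave a log2 difference of -1.28 (adjusted p = 0.0144). On log2(RPKM + 1) without that limit the difference was -0.54 and did not pass (limma's adjusted p = 0.307). Plcg2, the far more abundant phospholipase Cγ gene, was at 76.3 ± 2.26 and 71.7 ± 6.38 RPKM (SD, n = 3 each), with groups overlapping (log2 difference -0.09, limma's adjusted p = 0.633).

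**Figure D4:**
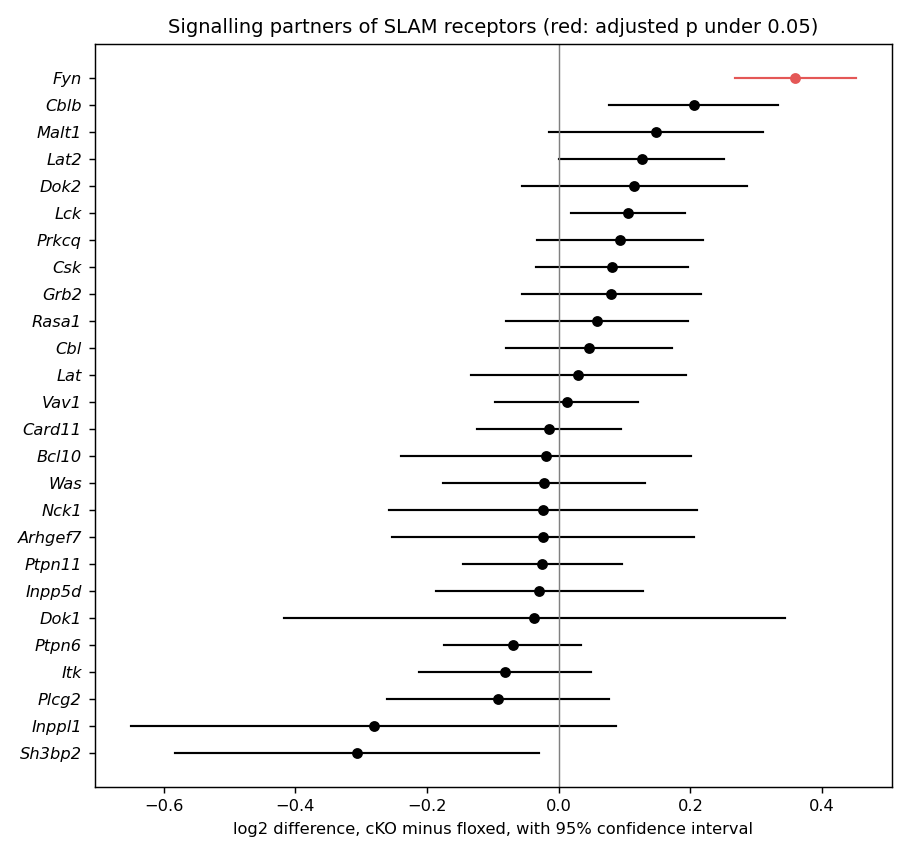
Log2 difference, cKO minus floxed, of the 26 tested signalling partners with 95% confidence intervals from limma on log2(RPKM + 1); red marks an adjusted p under 0.05. Fyn is the 1 red gene, at 0.36, and the others spread on both sides of 0.

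Of the other genes of the CD2 family, Cd2, a second receptor for CD48, was at 282, 254 and 273 RPKM in the floxed and 296, 294 and 291 RPKM in the cKO libraries. Its groups lay apart, with a log2 difference of 0.12 (SE 0.05, limma's adjusted p = 0.318). Slamf8 and Slamf9, known from myeloid cells, had 0 to 10 and 0 to 6 reads per library.

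SLAM receptors are shared with other blood cells, so markers of those cells are set beside them. The 14 B cell markers summed to 15.8 to 17.9 RPKM in floxed and 9.18 to 10.5 RPKM in cKO libraries. Of these, 2 were tested and Cd22 fell (9.93 ± 0.285 to 6.49 ± 0.649 RPKM, SD, n = 3 each, limma's adjusted p = 0.0353), and Pax5, which encodes a B cell factor, was at 0.0604 to 0.501 RPKM over the 6 libraries. The 14 T cell markers summed to 396 to 406 and 396 to 415 RPKM, mostly from Trbc1 and Trbc2. Of 10 tested, Cd3e fell (5.35 ± 0.430 to 2.93 ± 0.142 RPKM, limma's adjusted p = 0.0232) and the others did not pass. The 12 dendritic cell markers summed to 176 to 187 and 144 to 147 RPKM, and H2-Ab1 and Cd74 fell among 7 tested. The 12 macrophage and monocyte markers summed to 37.4 to 42.0 and 31.8 to 33.3 RPKM, with 0 of 4 tested passing in limma, where 2 had an unadjusted p under 0.05, both lower, and 1 passing as lower with voom. Among tested dendritic cell markers with groups apart, 1 was higher in the cKO libraries (Itgax, 56.1 ± 4.13 to 65.8 ± 3.49 RPKM) and 4 were lower. Among the T cell markers 1 was higher (Trbc1, 231 ± 5.79 to 252 ± 0.200 RPKM) and 3 were lower. Neither Itgax nor Trbc1 passed in limma. Platelet and mast cell markers, of which 4 of 9 were in the table, summed to at most 0.843 RPKM in any library. Conventional NK markers summed to 495 to 504 and 682 to 700 RPKM, with 6 of 13 passing as higher (Eomes, Gzma, Klra8, Klra4, Klra9 and Klra3). Groups lay apart for 8 of the 13, all higher. They overlapped for Itga2, S1pr5, Prf1, Zeb2 and Cma1. ILC1 markers summed to 538 to 562 and 441 to 446 RPKM, with 4 of 10 passing as lower (Il7r, Cxcr6, Il18r1 and Il2ra). Rora, the floxed gene itself, is among these 10 and did not pass in limma. Voom called 7 NK markers higher and 8 ILC1 markers lower. It called 1 B cell, 2 T cell and 3 dendritic cell markers lower and 1 dendritic cell marker higher. Over all tested genes limma called 0.652% higher and 0.668% lower, and voom 1.78% and 2.41%. The part of these markers and of the immediate-early genes in the levels of Cd84, Slamf6, Cd244 and Fyn was not tested.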

How the data were processed

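Per the submitters' processing notes, the build was mm10 and the tools were edgeR 3.12.1, Subread 1.5.1, STAR 2.5.3a and featureCounts. Not given in the sources used here are what each tool did, how strand was set and what became of duplicate reads. Expression values in the deposited table are RPKM, which the authors scaled by depth and length, for 24628 genes in 6 libraries, with gene length in bases (another value of the deposited table). RPKM times length fell on whole reads for 100% of values, within 0.001 reads, and these recovered reads gave the depth.

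Genes that reached 1 RPKM in 3 or more libraries, 12731, were tested with limma 3.58.1 in R 4.3.3 (eBayes with trend on log2(RPKM + 1), two-sided, Benjamini-Hochberg over all tested genes, threshold 0.05). Log2 differences are cKO minus floxed and understate the change of low genes. Adaptor ratios and means were tested by exact permutation over 20 assignments. Alternatives changed the pseudocount, the limit on level, the scaling, the trend, the block and the model (voom on recovered reads), and left out each library. The fits were tested on simulated data with larger changes than those of the tested members. That test does not show how changes as small as theirs are called. Transcript lengths and 50-base words came from GENCODE M21, and coordinates from the deposited table. The members and lists were chosen with earlier results of these data known. All members are named. Of the partners, those passing and the 2 others with the highest level are named. Of marker lists, members that passed or define a cell type are named. Some others are named because they make up much of a sum or bear on how a list is read.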

Additional observations from a re-analysis of the deposited data

How the results depend on the processing

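Each of the 8 tested members kept the sign of its log2 difference in all 15 alternatives, between -0.23 for Slamf7 and 0.39 for Slamf6, and Cd48 came to -0.002 without cKO replicate 3. Cd84 (0.20) and Slamf6 (0.39) passed with voom on recovered reads, which called 2 members higher, and no other alternative called a member in either direction; leaving out 1 library called 0 to 0. With voom without a limit on level, chosen after seeing the data, 0 members passed, and 1 partner passed as higher (Fyn) and 1 as lower (Plcg1). For Fyn the call was lost (0 partners higher) with the replicate block, without the trend, and without floxed replicate 3 or any 1 cKO library, a range of 0 to 1 over the libraries left out. The log2 adaptor ratio ranged from 0.05 to 0.45 when 1 library was left out, around 0.23, and kept its sign. Over all genes, 83 were called higher and 85 lower. Leaving out 1 library gave 33 to 51 and 27 to 39, no limit on level 44 and 36, no trend 39 and 35, voom 226 and 307, and voom without a limit on level 210 and 234. Median-of-ratios scaling gave 110 and 73. The replicate block gave 37 higher and 23 lower. Deviations of same-numbered libraries correlated at -0.03, 0.01 and 0.04. If the spread is technical only, paired libraries would not correlate either, so these values cannot tell whether the numbers pair them. The cause of these shifts was not tested. Depth limits Slamf1 (0 to 14 reads) and Sh2d1b2 (9 to 32 reads).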
